A study of Homo sapiens with 2 samples.

Results

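The genes described here are the 5 NF-kappa-B subunit genes and 5 genes grouped with them as inhibitors. The subunit genes are NFKB1, NFKB2, REL, RELA and RELB, and the others are NFKBIA, NFKBIB, NFKBIE, NFKBIZ and TNFAIP3. They are 10 of 19974 protein-coding genes on chromosomes 1 to 22 and X, and they were chosen by name. Every JUNB peak whose summit lay within 50 kb of the RefSeq span of one of them was taken, which gave 28 of the 32550 untreated peaks and 17 of the 25739 etoposide peaks on these chromosomes. JUNB belongs to the JUN family of AP-1 transcription factors. Its sites were mapped by CUT&RUN with a JUNB antibody in IMR-90, a line of human lung fibroblasts. In CUT&RUN an antibody brings a nuclease to the protein on chromatin and the released fragments are sequenced. There were 2 libraries, 1 from cells without treatment and 1 from cells given etoposide, a topoisomerase II poison that breaks DNA and is used to bring fibroblasts into senescence. The etoposide dose and time were not given in the sources used here, and no control library was used here. With 1 library per condition the treatment could not be tested against a replicate spread, and each difference below describes these libraries only.

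NF-kappa-B factors are dimers of proteins with a Rel homology domain. NFKB1 and NFKB2 encode precursors that are cut to the DNA-binding subunits of the canonical and the non-canonical branch, and RELA, REL and RELB encode the subunits that carry a transactivation domain. In resting cells the inhibitors of the I-kappa-B family, NFKBIA, NFKBIB and NFKBIE, hold the dimers in the cytoplasm until they are phosphorylated and degraded. NFKBIA and TNFAIP3, which encodes the ubiquitin-editing enzyme A20, are switched on by NF-kappa-B itself and shut the pathway down again, and NFKBIZ encodes a nuclear I-kappa-B protein that acts as a cofactor of p50 dimers. The pathway drives much of the inflammatory secretion of senescent fibroblasts, where AP-1 sites often lie in the same enhancers.

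The sequences at the starts of these genes are shown first, because several hold matches to the NF-kappa-B consensus. Peaks also lie at or beside the starts of TNFAIP3, NFKB2, NFKBIB and RELA. None of the matches lies in a peak, and the stretch closest to a peak, at NFKB2, is 112 bp from it. RefSeq promoter windows of GRCh38.p14, from 250 bases before to 50 bases after a listed start, were at hand for 8 of the 10 genes, 14 windows in all, and RELB and NFKBIE had none. They were searched on both strands for the NF-kappa-B consensus of 10 bases (the kappa-B site), for the AP-1 site TGANTCA and for the palindromic cyclic AMP response element, and matches are in capitals. The letters run 5′ to 3′ along the gene. Stretches of 26 to 30 bases around the kappa-B matches are given for NFKB1, NFKB2, REL, NFKBIZ and NFKBIB, leaving out 1 further match each in the third listed NFKB2 window and the second NFKBIZ window.
NFKB1, chr4:102501302-102501327, plus strand: acgtcagtGGGAATTTCCagccagga
NFKB2, chr10:102394463-102394489, plus strand: aacgtcatGGGAATTCCCCcctccggg
NFKB2, chr10:102394492-102394517, plus strand: gccgagaaGGGGCTTTCCcggccctg
NFKB2, chr10:102395676-102395701, plus strand: gtattttcGGGACTTTCCtaagctgc
REL, chr2:60881519-60881545, plus strand: tcagccgcGGGAAATTCCCctcccgcc
NFKBIZ, chr3:101827759-101827784, plus strand: tttggtctGGGAATTTCCagtgtgca
NFKBIB, chr19:38899922-38899951, plus strand: TGAATCAgggggcgtggtgGGGAATTTCCC

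At least 1 kappa-B match was found in 7 of the 8 genes with a window, all but RELA, and in 9 of their 14 windows. Over all genes with a window, 7.10% held a match in at least 1 window, and 5.91% of all 34961 windows did. The AP-1 site was found in 1 member window, against 7.68% of all windows. That match, TGAATCA in NFKBIB, begins 47 bases before the second listed start and is followed by a kappa-B site in the same 30 bases shown above. The cyclic AMP response element was found in none of the 14 windows, against 1.85% of all windows. A match describes these letters only and was not taken as a bound site.

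The promoters of TNFAIP3, NFKBIA and NFKB2 are given from 250 bases before to 30 bases after their first listed start, followed by the stretch of 107 bases between and around the divergent starts of SIRT2 and NFKBIB. TNFAIP3 is shown for its pair of kappa-B sites beside a shared JUNB peak, and NFKBIA as the classical feedback promoter. The other stretches are shown because a single-library peak covered part of them. A RELA window was also touched by a single-library peak, but it held no match and is not printed.
TNFAIP3, chr6:137867009-137867288, plus strand: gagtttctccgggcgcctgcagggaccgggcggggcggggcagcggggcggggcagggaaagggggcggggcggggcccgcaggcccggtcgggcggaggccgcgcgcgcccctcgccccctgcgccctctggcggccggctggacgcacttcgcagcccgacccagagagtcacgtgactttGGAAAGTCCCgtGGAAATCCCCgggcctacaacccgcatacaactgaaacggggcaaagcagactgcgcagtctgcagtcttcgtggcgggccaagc
NFKBIA, chr14:35404720-35404999, minus strand: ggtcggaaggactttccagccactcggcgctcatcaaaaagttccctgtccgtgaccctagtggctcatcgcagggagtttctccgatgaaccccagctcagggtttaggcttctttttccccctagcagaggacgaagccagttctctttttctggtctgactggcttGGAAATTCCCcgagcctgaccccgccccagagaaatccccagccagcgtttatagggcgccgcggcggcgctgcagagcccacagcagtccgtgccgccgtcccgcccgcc
NFKB2, chr10:102393860-102394139, plus strand: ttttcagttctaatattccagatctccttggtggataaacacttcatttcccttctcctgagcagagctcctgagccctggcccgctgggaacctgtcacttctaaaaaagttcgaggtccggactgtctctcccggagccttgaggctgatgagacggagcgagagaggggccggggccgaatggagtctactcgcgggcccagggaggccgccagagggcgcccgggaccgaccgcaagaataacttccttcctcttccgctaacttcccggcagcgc
NFKBIB, chr19:38899589-38899695, plus strand: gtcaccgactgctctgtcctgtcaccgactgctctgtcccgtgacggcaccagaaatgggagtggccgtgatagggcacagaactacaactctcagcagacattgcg

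JUNB peaks were found near 9 of the 10 genes in the untreated library and near 7 in the etoposide library, and the most lay around TNFAIP3 and NFKB1. In the same window of 50 kb, untreated peaks were found at 72.0% of all protein-coding genes and etoposide peaks at 62.6%, so the numbers of genes were close to what the whole annotation gave. The median over the 10 genes was 3 untreated and 1.5 etoposide peaks, against 2 and 1 over all protein-coding genes. RELB had no summit within 50 kb in either library, and NFKB2 and RELA had none in the etoposide library.

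**Figure D1:**
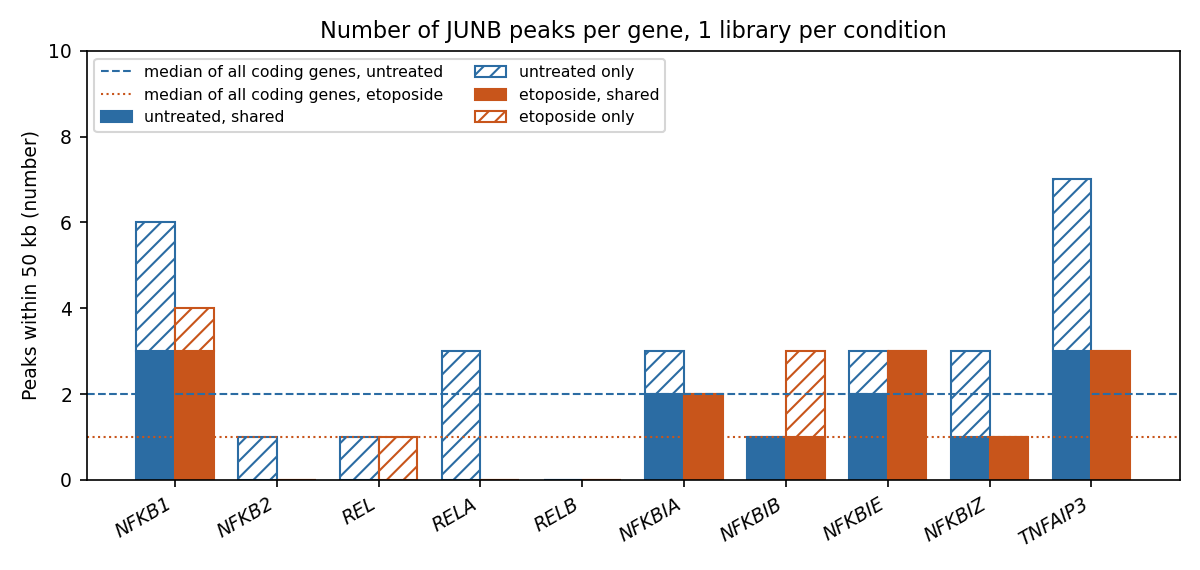
Bars give the number of JUNB peaks with a summit within 50 kb of each gene, untreated (blue) and etoposide (orange), filled for peaks shared with the other library and hatched for peaks of 1 library alone, and the lines are the medians of all protein-coding genes (2 untreated, 1 etoposide). TNFAIP3 with 7 and NFKB1 with 6 untreated peaks stand highest, and RELB has none.

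A peak counted as shared if it overlapped a peak of the other library by 1 bp or more. Of the 28 untreated peaks 12 were shared, 42.9% (95% Wilson interval 26.5% to 60.9%), where 51.0% of all untreated peaks were. Of the 17 etoposide peaks 13 were shared, 76.5% (52.7% to 90.4%), where 64.8% of all etoposide peaks were. Both intervals take in the value of the whole list and cover counting error only. Joined at gaps of up to 1 kb, the peaks fell into 27 places, of which 11 had peaks of both libraries, 12 of the untreated library alone and 4 of the etoposide library alone. The whole lists were not joined into places, so no share over all places was at hand. Without joining, 15940 untreated and 9063 etoposide peaks of the whole lists had no counterpart. The number of peaks was lower in the etoposide library at 6 genes, equal at 3 (REL, RELB and NFKBIE) and higher at 1 (NFKBIB). Over all protein-coding genes it was lower at 45.6% and higher at 12.9%.

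**Figure D2:**
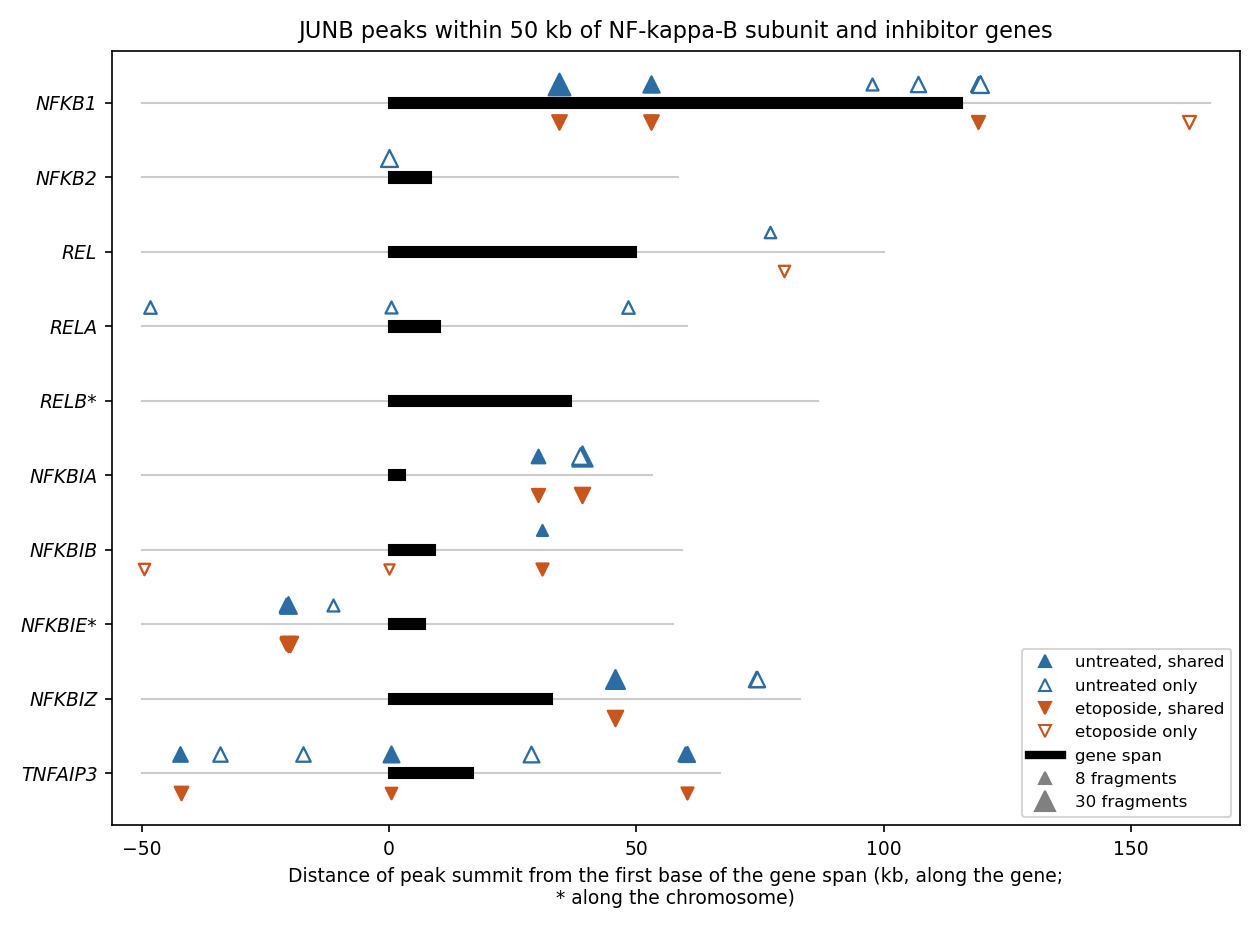
Each row is a gene drawn to scale along its own direction from the first base of its span (0 kb); RELB and NFKBIE, marked with an asterisk, are drawn along the chromosome. Triangles above the line are untreated and below it etoposide summits, filled when shared, with area rising with the fragments at the summit. Shared places lie inside and behind NFKB1, behind NFKBIA, NFKBIB and NFKBIZ, and before NFKBIE along the chromosome. At TNFAIP3 they lie at the start of the gene and on both sides of it.

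The strength of a peak is given as the number of fragments stacked at its summit, which the deposited fold and p together fix, and by its rank on the authors' -log10 q within its own list. The 28 untreated peaks had 7 to 34 fragments with a median of 15, the same median as the whole list, and the 17 etoposide peaks had 6 to 16 with a median of 11, against 13 for the whole list. Of the untreated peaks 13 were above the median -log10 q of their list, and of the etoposide peaks 6 were. The relative depth of the etoposide library, read from the lowest background and the smallest peak width of each list, was 0.836 times that of the untreated library, and fragment numbers are printed without scaling to it.

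NFKB1, the p50 precursor gene, had the strongest peak near any of the 10 genes. Its span is chr4:102501359-102617302, 116 kb on the plus strand, and 6 untreated and 4 etoposide summits lay within 50 kb of it. All 6 untreated summits were in the span or within 10 kb of its end. As many or more untreated peaks were found at 9.85% of protein-coding genes, and per 100 kb of window there were 2.78, against a median of 0.991 over all genes. That density was lower than at TNFAIP3 (5.99), NFKBIA (2.91) and NFKBIE (2.79).

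The strongest NFKB1 peak lay inside the gene, 33.8 kb after the second listed start. It was listed at chr4:102535301-102535964 in the untreated library with 34 fragments, a fold of 11.7 and rank 1580, in the top 4.85% of the list. Its etoposide counterpart at chr4:102535365-102536193 had 14 fragments and rank 14711, at 57.2% of the list, and the summits were 8 bp apart. The ratio of etoposide to untreated fragments was 0.412, with an exact 95% interval of 0.204 to 0.788. Of all 17119 shared pairs 3.52% had a lower ratio, and the median ratio of all pairs was 0.769. This pair had the highest untreated number near these genes, and pairs were not matched on that number.

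A second shared peak inside NFKB1, 52.3 kb after the second listed start, had 18 untreated and 14 etoposide fragments (chr4:102554190-102554574 and chr4:102554232-102554522). Another lay past the end of the span, by 3197 bp in the untreated library and 3050 bp in the etoposide library, with 15 and 11 fragments. Beside it, separated by a gap of 201 bp, the untreated list had another peak with 20 fragments at chr4:102620841-102621076 and no etoposide counterpart. Both of these places lie in the lncRNA gene LOC105377347, which overlaps the end of NFKB1, and the last peak reaches the promoter window of that gene.

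The remaining NFKB1 peaks were found in 1 library each. Untreated peaks inside the last part of the gene had 9 fragments at chr4:102599037-102599238 and 16 at chr4:102608127-102608460. An etoposide peak with 11 fragments at chr4:102663003-102663215 was 45.8 kb past the gene and inside MANBA, the beta-mannosidase gene. No listed peak of either library touched the NFKB1 promoter windows, and the nearest summit to a listed start was the strong one at 33.8 kb.

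NFKB2, the p52 precursor gene of the non-canonical branch, had 1 peak, at its start and in the untreated library alone. The gene spans chr10:102394110-102402529 on the plus strand. The peak at chr10:102394113-102394351 had 20 fragments, a fold of 9.08 and rank 6600, in the top 20.3% of the list, and its summit was 111 bp after the first listed start. The first 27 bp of the peak are the end of the NFKB2 stretch printed above, and the kappa-B match GGGAATTCCCC of the second promoter window begins past the end of the peak. Of the 996 untreated peaks with 20 fragments, 64.1% had an etoposide counterpart. The nearest etoposide summit was 53.4 kb from the gene, just outside the window, at chr10:102455839-102456270 with 12 fragments, and this was also the closest etoposide summit beyond the 50 kb limit for any of the 10 genes.

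RELA, which encodes the p65 transactivating subunit, had 3 untreated peaks and no etoposide peak, all of them weak. The gene spans chr11:65653601-65663857 on the minus strand. The peak inside it, at chr11:65663042-65663452, had 9 fragments and rank 27086, at 83.2% of the list, and lay between the listed starts of RELA, with its summit 462 bp before the inner one. It also lay in RELA-DT, the divergent lncRNA gene. The others had 10 fragments each and lay at the starts of neighbours, 0.325 kb from PCNX3 and inside KAT5, an acetyltransferase gene. At 48.2 kb the KAT5 peak was the farthest untreated summit inside the limit, and the first outside it was 50.8 kb from NFKB2 with 15 fragments. Among untreated peaks with 9 fragments, 23.8% had a counterpart. The nearest etoposide summit was 93.2 kb from RELA.

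REL had 1 peak in each library and RELB none. REL, on chr2:60881574-60931612, had both of its peaks inside the neighbouring gene PUS10, each with 8 fragments. They did not overlap. The untreated one was at chr2:60958583-60958784, 27.1 kb past the end of REL, and the etoposide one at chr2:60961379-60961567, 29.8 kb past it. RELB, the partner of the NFKB2 product, spans chr19:45001464-45038192, and its nearest summits were 53.8 kb away in the untreated library (10 fragments) and 111 kb away in the etoposide library (9 fragments). Depth and threshold set what a list holds, so weaker binding there was not detectable in these lists.

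Among the inhibitors, NFKBIA had peaks only behind the gene, and the same places were listed in both libraries. NFKBIA encodes I-kappa-B alpha and spans chr14:35401513-35404749, 3.24 kb on the minus strand. A place 35.7 kb past its end had 29 fragments in the untreated library at chr14:35365412-35365928, in the top 10.8% of the list. Its etoposide counterpart at chr14:35365442-35365908 had 16 fragments, at 30.8% of its list, with summits 9 bp apart and a ratio of 0.552 (0.280 to 1.05). An untreated peak alone, with 19 fragments, followed after a gap of 129 bp. The nearer place, 26.8 kb past the gene, had 12 untreated and 11 etoposide fragments with summits 2 bp apart. NFKBIA was the nearest protein-coding gene to all 5 of these peaks. The promoter printed above, with its kappa-B site 81 bases before the start, was touched by no listed peak.

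NFKBIZ, the nuclear I-kappa-B gene, also had its peaks past its end. The gene spans chr3:101827990-101861022 on the plus strand. The shared peak 12.7 kb behind it had 25 fragments in the untreated library (chr3:101873623-101873881, top 11.1%) and 16 in the etoposide library (chr3:101873596-101874085, top 29.6%), a ratio of 0.640 (0.319 to 1.25). Farther out the untreated list alone had a pair of peaks with 16 fragments each, 41.1 kb and 41.5 kb past the gene and separated by 153 bp. NFKBIZ was the nearest coding gene to all 4 peaks.

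TNFAIP3 had the most untreated peaks, 7, and the highest density of the 10 genes, 5.99 per 100 kb of window. The gene spans chr6:137866349-137883312 on the plus strand. As many or more untreated peaks were found at 6.46% of protein-coding genes. In the etoposide library it had 3 peaks, each with an untreated counterpart, and 23.2% of genes had as many or more. TNFAIP3 was the nearest coding gene to all 10. Upstream of the listed start or at it, 4 untreated and 2 etoposide summits lay in WAKMAR2, a lncRNA gene that overlaps the start of TNFAIP3.

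The shared TNFAIP3 peak at the start of the gene had 17 fragments in the untreated library (chr6:137866334-137866958, rank 11237) and 8 in the etoposide library (chr6:137866576-137866936, rank 24073). Its summit was 448 bp (untreated) and 478 bp (etoposide) before the listed start. The kappa-B pair GGAAAGTCCCgtGGAAATCCCC of the promoter begins 67 bases before the listed start, and the stretch of 30 bases around it is 230 bp from the untreated peak. The ratio of fragments was 0.471 (0.176 to 1.15), and 7.39% of all shared pairs, not matched on untreated fragments, had a lower one.

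The other shared TNFAIP3 places lay about as far on either side. Upstream, 42.2 kb before the span in the untreated library, there were 14 untreated and 12 etoposide fragments (chr6:137824105-137824309 and chr6:137824117-137824402). Downstream, 43.2 kb past the span, there were 15 and 9 fragments with summits 4 bp apart, and an untreated peak alone with 13 fragments came 118 bp before this place. The remaining 3 untreated peaks without counterpart lay 34.2 kb and 17.4 kb upstream with 14 fragments each, and 11.7 kb downstream with 17 fragments. Of the 7 untreated peaks 3 were thus listed in both libraries, with 14 to 17 fragments, and 4 in the untreated library alone, with 13 to 17, so the fragment numbers of both kinds overlapped.

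NFKBIB and NFKBIE, which encode I-kappa-B beta and epsilon, lie among closely spaced genes, and none of their peaks had them as the nearest coding gene. NFKBIB spans chr19:38899666-38908889 on the plus strand and was the only one of the 10 with more etoposide (3) than untreated peaks (1). The shared place, inside SARS2 and touching the promoter window of MRPS12, had 7 untreated and 9 etoposide fragments. The ratio of 1.29 (0.426 to 4.06) was the only one above 1 among the 13 shared pairs. An etoposide peak alone with 6 fragments at chr19:38899546-38899734 had its summit 61 bp before NFKBIB and inside SIRT2, a sirtuin deacetylase gene that runs the other way, and it covers the printed NFKBIB stretch of 107 bases but not the one of 30 bases with the AP-1 match, which is 188 bp away. It ranked 25069 of 25739. The other etoposide peak, with 8 fragments, lay at the start of HNRNPL, 49.5 kb away and the last inside the limit.

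NFKBIE spans chr6:44258166-44265551 and had 3 peaks in each library. Most of them formed a cluster 19.9 to 20.8 kb from the gene, nearest to the nucleoside transporter gene SLC29A1. The untreated list had peaks with 12 and 19 fragments there, and the etoposide list had 9, 16 and 16. A single untreated peak of 646 bp at chr6:44237693-44238338 overlapped a pair of etoposide peaks at chr6:44237706-44237907 and chr6:44238122-44238325 with equal fold and -log10 q. An untreated peak alone, with 9 fragments, lay in HSP90AB1, a heat shock chaperone gene, and reached its promoter window.

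The 13 shared pairs at 6 of the genes had a median ratio of etoposide to untreated fragments of 0.750, and the median over all 17119 shared pairs was 0.769. The 13 pairs rest on 12 untreated peaks, since the untreated NFKBIE peak of 646 bp was paired with 2 etoposide peaks. Without scaling to the relative depth of 0.836, fewer etoposide fragments were found in 12 of the 13 pairs, and in 74.0% of all pairs. The exact 95% interval of every one of the 13 ratios took in 0.769, that of the strongest NFKB1 pair with an upper bound of 0.788, and these intervals cover counting error only.

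**Figure D3:**
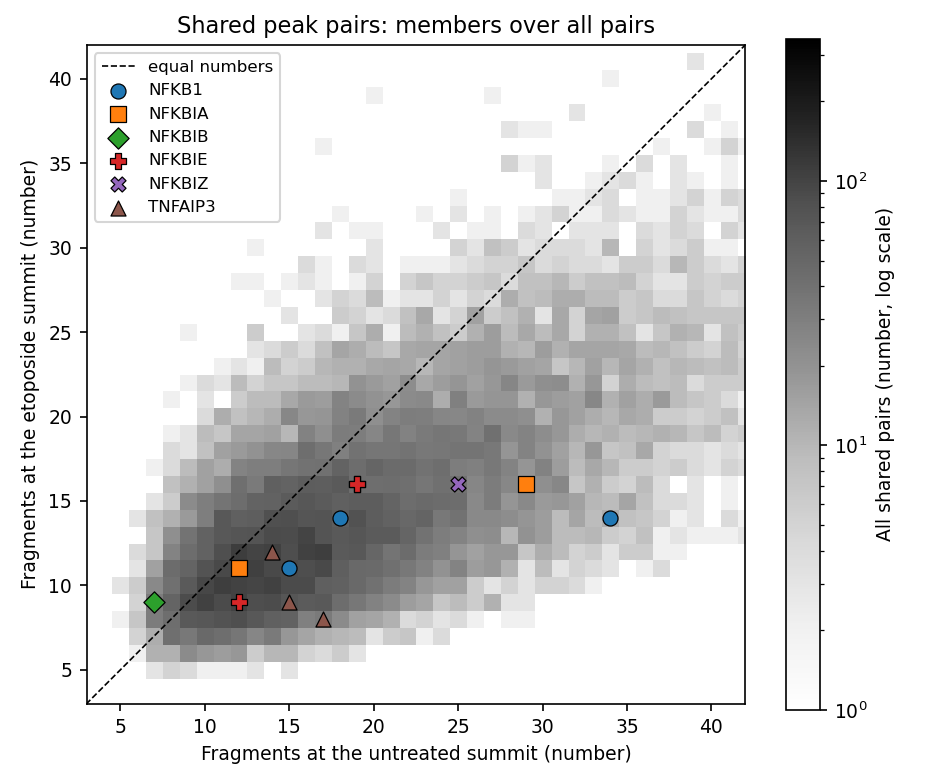
Coloured symbols give the fragments at the summit in the untreated (x) and etoposide (y) library for the 13 shared pairs near the 6 genes with one, over all shared pairs in grey (number per cell, log scale); the dashed line marks equal numbers, and the NFKBIE symbol at 19 and 16 stands for 2 pairs. The NFKB1 pair with 34 and 14 fragments lies farthest below the line, and the NFKBIB pair alone lies above it.

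Peaks of 1 library were mostly in the weaker part of their list. The 16 untreated peaks without a counterpart had 8 to 20 fragments with a median of 14, and 5 of them were above the median -log10 q of the list. The 12 shared untreated peaks had 7 to 34 with a median of 16, and 8 of them were above it. All 4 etoposide peaks without a counterpart had 6 to 11 fragments and were below the median of their list, and 6 of the 13 shared etoposide peaks were above it. Over the whole lists, untreated peaks had a median of 19 fragments when shared and 12 when not, and etoposide peaks 14 and 10.

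**Figure D4:**
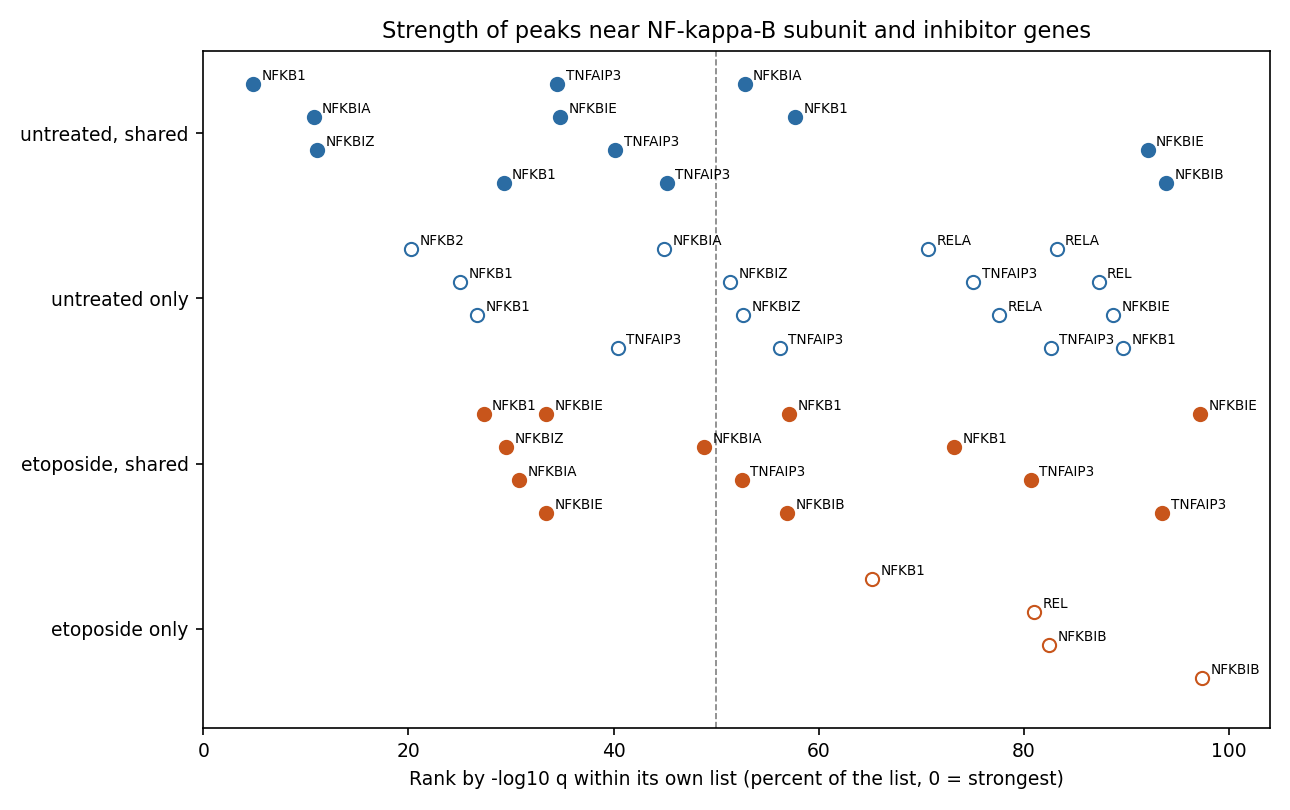
Each point is a peak near one of the genes, placed by its rank on -log10 q within its own list (percent of the list, 0 is the strongest; the dashed line is the middle of the list), filled when shared. The NFKB1, NFKBIA and NFKBIZ shared peaks lead in the untreated list, the NFKB2 peak leads among untreated peaks without a counterpart, and the 4 etoposide peaks without a counterpart lie beyond 65.2%.

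Promoter windows of any gene were touched by 7 of the 28 untreated and 3 of the 17 etoposide peaks. Inside the spans lay 7 untreated and 3 etoposide summits, a further 2 and 2 within 10 kb, and 19 and 12 from 10 to 50 kb away. This split depends on how much of the window lies at each distance. No share over all peaks was at hand for these counts. Exons and introns were not resolved here. A summit lay inside the gene at 4 of the 10 genes (untreated) and at 2 (etoposide), where 33.4% and 27.7% of all protein-coding genes had one. Within 10 kb it was 4 and 3 of 10, against 49.6% and 38.9%. The member was the nearest coding gene for 21 of 28 untreated and 9 of 17 etoposide peaks. Untreated peaks touched 3 of the 14 promoter windows, of NFKB2 and RELA, against 8.90% of all windows. The neighbouring NFKB2 windows were touched by the same peak. Etoposide peaks touched 2, both of NFKBIB, against 2.84%. Here too the same peak touched both windows, with 6 fragments, at 97.4% of its list. So few separate peaks allow no comparison with the share of all windows.

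The wider pathway was taken as 39 further genes, mostly for adaptors, kinases and ubiquitin enzymes that lead to NF-kappa-B or restrain it, with further I-kappa-B related genes and ZC3H12A, which encodes an RNase that dampens inflammatory transcripts. Untreated peaks lay within 50 kb of 31 of them (79.5%) and etoposide peaks of 29 (74.4%), against 72.0% and 62.6% of all coding genes. The median was 2 untreated and 1 etoposide peaks, as over all genes. The etoposide library had fewer peaks at 24 of the 39, equal numbers at 11 and more at 4, where 45.6% of all protein-coding genes had fewer and 12.9% more. A summit within 1 kb of a listed start was found in the untreated library at 9 of the 36 genes with a listed start (17.5% of coding genes), and in the etoposide library at 1 (6.61%). The 9 were TRAF6, TAX1BP1, IRAK4, BIRC2, N4BP1, TANK, TRAF1, TBK1 and BCL3, at distances from 110 bp for TRAF6 to 931 bp for BCL3. TBK1, a kinase that phosphorylates interferon regulators, was the one with both, at 757 bp and 672 bp.

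Genes of the wider pathway with a peak within 10 kb in 1 library and none within 50 kb in the other were NFKBID and NFKBIL1, which encode I-kappa-B related proteins, and MAP3K7, which encodes the kinase TAK1, all 3 untreated, and TNIP2, which encodes an A20-binding protein, etoposide. Of all protein-coding genes, 7.13% met this rule for the untreated and 1.73% for the etoposide library. The most peaks over both libraries lay at IRAK2 (10), TAB2 (9), TAX1BP1 (9), IKBKB (8) and IKBKE (8). TNFAIP3 and NFKB1 had 10 each. IRAK2, a kinase of interleukin-1 receptor signalling, had 7 untreated and 3 etoposide peaks with 3 shared, the same numbers as TNFAIP3. By the summed difference in untreated, etoposide and shared numbers over these 2 libraries, IKBKE came next to TNFAIP3 at 3, and IKBKB, MAP3K14, MYD88 and TANK tied after it at 4. NFKB1 was nearest to IRAK2 at 2, and to TAB2 and IKBKE at 3. TAX1BP1, which encodes an A20 adaptor, had more etoposide (6) than untreated (3) peaks.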

How the data were processed

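JUNB CUT&RUN peaks of 2 IMR-90 libraries, grouped by the treatment label, were used. Reads were aligned with Bowtie2 and peaks called with MACS2 on hg38, per the submitters' processing notes, which also name mm10 and give no settings. The deposited columns used were the fold (a ratio of summit pileup to local background), the summit's -log10 p, its -log10 q, its position and the score, which the authors deposited as the whole part of 10 times -log10 q. Each list is from 1 library.

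Positions were turned to count from 1, and peaks on chromosomes 1 to 22 and X were kept, with Python 3.11.15, pandas 2.3.3 and scipy 1.17.1. Summits were set against RefSeq gene spans of GRCh38.p14. The pileup was the whole number k that gives the deposited fold (pseudocount 1) and Poisson -log10 p, found within 0.001 for 100% of peaks of both lists. On simulated data 100% of 2000 pileups were recovered. Shares have Wilson intervals and pileup ratios exact binomial (Clopper-Pearson) intervals at 95%. Both cover counting error only, since fragments without molecular identifiers need not be independent molecules. Genes and lists were chosen with earlier results of these data known. All 10 genes are named. Peaks described singly are those inside or within 10 kb and the strongest of each gene, and the others were added after their values were seen. Wider pathway genes are named for a summit within 1 kb of a start, for a peak within 10 kb in 1 library with none within 50 kb in the other, as the 5 with the most peaks, or as the most alike.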

Additional observations from a re-analysis of the deposited data

How the results depend on the processing

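The alternatives changed the window, the peaks admitted, the overlap that counts as shared, and the genes a peak is counted for. Those for the wider pathway were chosen after seeing the data. Fewer etoposide than untreated peaks were found at the 10 genes under every one of them that changes these counts, except that equal numbers of genes (4 and 4) had a peak among the 10000 strongest peaks of each list. The higher shared share of the etoposide list follows from these counts, since shared peaks number nearly the same in both lists. Within 10 kb there were 9 untreated and 5 etoposide peaks, at 4 and 3 genes. Within 100 kb there were 43 untreated peaks, at all 10 genes. Among the 10000 strongest there were 7 and 5 peaks at the 10 genes, and 19 wider pathway genes had a peak in each library. No share of all protein-coding genes was at hand for 100 kb or for the 10000 strongest. These gene numbers were therefore not compared with the whole annotation. With peaks counted only where the gene is the nearest coding gene, 9 etoposide peaks remained, against 21 untreated. Of all alternatives run, 26 left their value within 1.5 times of the count or within the interval of the share, and 12 did not. All of those 12 were counts of peaks or of genes with a peak. The shared shares all stayed within their intervals, which were wide. No paired analysis was possible because each condition has 1 library. The lists give no depth beyond the pileups, and with 6 to 34 fragments at these summits a ratio between libraries has an exact interval whose bounds are at least 3.75-fold apart.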
